A study of Mus musculus with 6 samples.

Results

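The genes described here encode the machinery of the 3 nuclear RNA polymerases: the subunits of polymerases I, II and III, and the factors that bring polymerases I and III to their promoters. They were taken by symbol from the array's annotation, as every gene whose symbol starts with Polr1, Polr2, Polr3 or Gtf3c, plus Rrn3, Ubtf, Taf1a, Taf1b, Taf1c, Taf1d, Brf1, Brf2, Bdp1 and Maf1, using only probe sets with exactly 1 symbol. This gave 42 genes of 20416 on the array, with 11 in the polymerase I set, 12 in the polymerase II set and 19 in the polymerase III set. The rule reads symbols only, but it was drawn up with earlier results of these data known.

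RNA came from C2C12, an established mouse myoblast line that fuses into myotubes when serum is lowered. Cells were grown in 10% fetal bovine serum, shifted to 2% horse serum and used as differentiated myotubes on days 4 to 7. The 3 insulin samples had 100 nM insulin in fusion medium for 48 h, a treatment that per the labels was meant to bring about insulin resistance. The 3 control samples had none, and medium was changed every 24 h. All arrays are of this 1 cell line, and the labels call the arrays of a group biological replicates without saying whether they came from separate cultures, so p-values measure the spread between these samples. Myotube markers stood well above the dim filter of 7.05 on all arrays, with a mean over 12 markers of 12.92 to 13.08 on control arrays and 12.71 to 12.75 on insulin arrays (log2 scale). All 12 differences were negative, as were those of 7237 of all 14291 tested genes. Actn2, Tnni2, Ckm and Myog fell (4 of 12), against 6.35% of all tested genes.

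Polymerase I works in the nucleolus and makes a single product, the precursor of the large ribosomal RNAs. UBTF opens and bends the ribosomal DNA, the SL1 complex (TBP with TAF1A, TAF1B, TAF1C and TAF1D) marks its promoter, and RRN3 joins the enzyme to SL1. Polymerase II makes messenger RNA. Polymerase III makes transfer RNAs, 5S ribosomal RNA and other short RNAs: TFIIIC binds the promoter, TFIIIB (BRF1 or BRF2 with BDP1 and TBP) recruits the enzyme, and MAF1 binds the enzyme and represses it when nutrients or growth signals fall. Polymerases I and III rise and fall with cell growth, and mTORC1 signalling, which insulin activates, feeds into RRN3, TFIIIB and MAF1. Much of that control acts on the proteins, which arrays do not measure.

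Polymerase III has an unusual feature at the level of its genes. One subunit comes in alternative forms, encoded by the paralogs Polr3g (RPC7α), known from stem, embryonic and dividing cells, and Polr3gl (RPC7β), found in most tissues. The data bear on both genes and on Taf1a, so the 250 bases upstream of their annotated starts are printed, from RefSeq on GRCm38.p6. Lower case is plain sequence. Capitals mark matches, on either strand, to the E-box CACGTG or to the ETS core CCGGAAG, which reads CTTCCGG on the other strand.
Polr3g (chr13:81711014-81711263, minus strand): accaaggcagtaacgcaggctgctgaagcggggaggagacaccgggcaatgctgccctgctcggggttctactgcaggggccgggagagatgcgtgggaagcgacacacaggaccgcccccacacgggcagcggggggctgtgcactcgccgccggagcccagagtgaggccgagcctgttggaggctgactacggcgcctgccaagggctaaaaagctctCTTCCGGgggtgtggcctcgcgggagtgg
Polr3gl (chr3:96594182-96594431, minus strand): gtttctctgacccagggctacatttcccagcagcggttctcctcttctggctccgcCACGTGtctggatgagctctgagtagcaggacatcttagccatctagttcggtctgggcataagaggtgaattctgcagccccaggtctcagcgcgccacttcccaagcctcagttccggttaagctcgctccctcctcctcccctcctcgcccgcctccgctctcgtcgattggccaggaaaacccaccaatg
Taf1a (chr1:183388735-183388984, plus strand): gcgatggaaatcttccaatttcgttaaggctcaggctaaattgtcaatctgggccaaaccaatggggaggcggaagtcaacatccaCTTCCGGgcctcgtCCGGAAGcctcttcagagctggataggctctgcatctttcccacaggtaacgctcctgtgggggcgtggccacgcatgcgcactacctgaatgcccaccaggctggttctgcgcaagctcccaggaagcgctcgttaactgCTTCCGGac

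The Polr3g sequence held 1 ETS core, 29 bases before the start, and no E-box. The Polr3gl sequence held 1 E-box, 194 bases before the start, and no ETS core. The Taf1a sequence, upstream of the more downstream of its 2 listed starts, held ETS cores 164, 150 and 9 bases before it. The table of promoters held 34 of the 42 genes with 43 starts, and 13 of these starts (30.2%) had an ETS core against 6.91% of all 32851 starts in the table. An E-box stood in 5 of the 43 (11.6%) against 6.02% of all. Overlapping windows of Gtf3c6 and of Taf1a share sites, so the starts with an ETS core belonged to 11 genes and those with an E-box to 4. The ETS core was found at 3 of 11 genes of the polymerase I set, 2 of 9 of polymerase II and 6 of 14 of polymerase III. Of the 5 genes that rose after insulin, Taf1a and Polr3g held it, and Taf1d, Polr1e and Polr1b held neither motif in these windows. The other genes with an ETS core, for instance Gtf3c1, Polr2f and Taf1c, did not rise, and 11 of all 34 genes held it. The motifs were chosen after the array values were known, and a match is a description of letters.

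After insulin 5 of the 42 genes rose and limma called none lower, although Polr3gl and Maf1 had an unadjusted p under 0.05 on the lower side. Such a p was found for 2 of the 42 on the lower side and 10 on the higher, against 13.2% and 16.7% of all tested genes. The genes that rose were Taf1d, Taf1a, Polr1e and Polr1b of the polymerase I set and Polr3g of the polymerase III set. No polymerase II gene passed the test. Values are log2 RMA values, on which a step of 1 is a doubling, and a gene passed when limma's p-value, adjusted by Benjamini-Hochberg over all 14291 tested genes, was under 0.05. All 42 genes lay above the filter on dim genes and were tested. Among all tested genes 9.56% passed as higher and 6.35% as lower. The members' share that rose (11.9%) is close to that background. By set it was 36.4% for polymerase I (4 of 11), 0 of 12 for polymerase II and 5.26% for polymerase III (1 of 19). The median difference was 0.20 in the polymerase I set, 0.032 in the polymerase II set and 0.10 in the polymerase III set, against -0.0028 over all tested genes. The polymerase II set holds 5 subunits that all 3 enzymes share, and its other 7 genes had a median of 0.081. Without the shared Polr1c and Polr1d the polymerase I median stayed at 0.20. The differences between sets are given as counts and medians and were not tested. The count of 5 fell to 1 without insulin 1 (Polr1e alone) and to 2 without insulin 2 (Polr1e and Taf1a). Without insulin 3 Polr1b was lost, and without control 2 Taf1d. Over all genes the number that passed fell from 2274 to 1267, 1046, 1114 and 1237 in these 4 runs. The members' count rose to 10, with 2 genes lower, when a gene's probe sets were averaged. It did so too when each probe set was centred before the median was taken, a setting added after seeing the data. It was also 10, again with 2 lower, with array quality weights, which gave control 2 a weight of 6.20 and control 1 a weight of 0.320. The share of all tested genes that rose grew as well in these runs, from 9.56% to 13.7%, 15.4% and 18.2%.

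**Figure D1:**
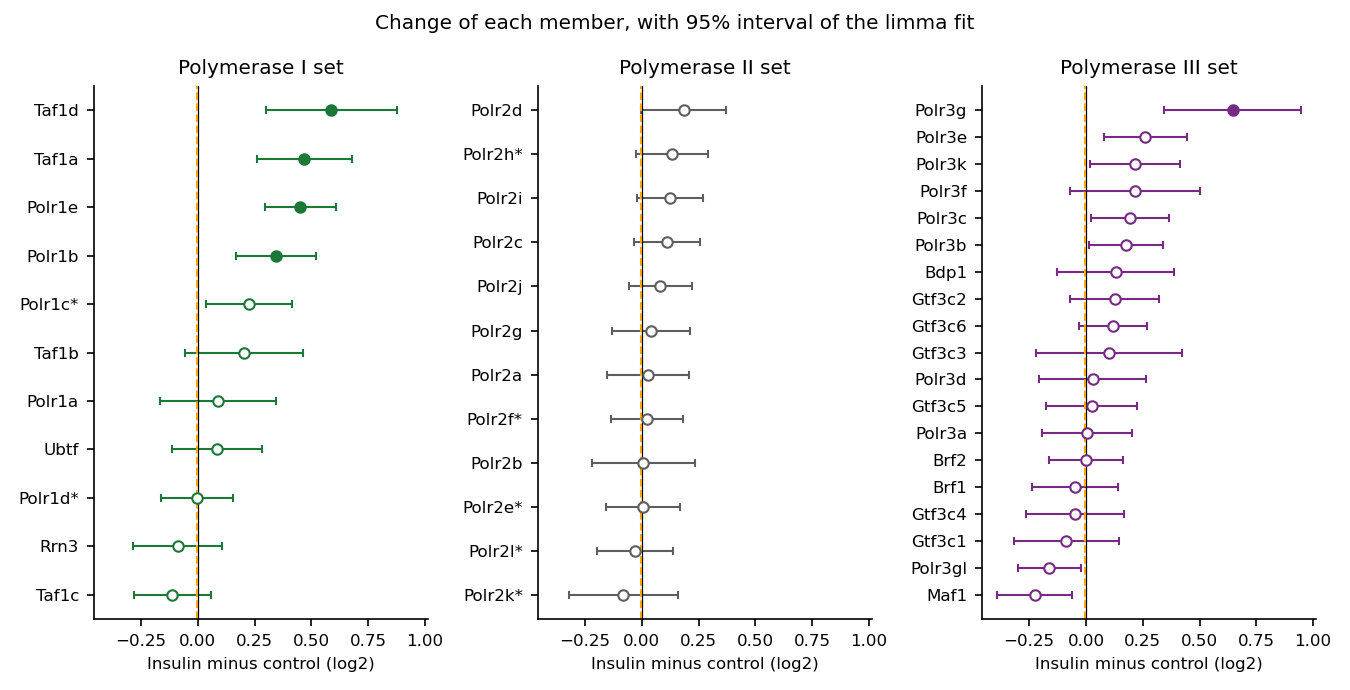
Difference between 3 insulin and 3 control arrays for each of the 42 genes on the log2 scale, in a panel for each set. Points are the differences, bars the 95% intervals of the limma fit, filled points passed the test, stars mark subunits shared between polymerases, and the dashed line is the median of all tested genes; 4 filled points stand in the polymerase I panel, none in polymerase II and 1 (Polr3g) in polymerase III.

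Of the 5 polymerase I subunit genes under Polr1 symbols, Polr1e and Polr1b rose. Polr1e encodes PAF53, a subunit particular to polymerase I that helps it start transcription. Its values were 9.77, 9.89 and 9.89 on the control arrays and 10.29, 10.36 and 10.26 on the insulin arrays. The groups lay apart by more than either group spread, and Polr1e rose 1.37-fold (0.45 ± 0.07, SE, limma adjusted p = 0.00474). Of its 15 probe sets 14 were higher after insulin. The brightest probe set taken alone gave 0.24 and did not pass (limma adjusted p = 0.171), while Polr1e passed with each array left out in turn.

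Polr1b encodes RPA135, the second-largest subunit, which forms the catalytic centre with the largest. Its values were 10.18, 10.41 and 10.36 on control arrays and 10.68, 10.62 and 10.67 on insulin arrays. Control 1 was the low array, and the insulin arrays lay close together above all controls. Polr1b rose 1.27-fold (0.34 ± 0.08, SE, limma adjusted p = 0.0211), and all 15 of its probe sets were higher after insulin, none of them passing alone. The call was lost without insulin 1, 2 or 3 (limma adjusted p = 0.0743, 0.0628 and 0.0779), with the brightest probe set (0.19, adjusted p = 0.111) and with the brighter probe sets (0.25, adjusted p = 0.073).

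The other subunits did not pass. Polr1a, the largest subunit (RPA194), stood at 10.20, 10.22 and 9.90 in controls and 10.33, 10.04 and 10.22 after insulin. The groups overlapped, and the difference was 0.089 with a 95% interval of -0.17 to 0.34 (limma adjusted p = 0.645). Of its 37 probe sets 29 were higher after insulin, with differences from -0.42 to 0.77, and their mean did pass (0.18, limma adjusted p = 0.0406). The gene's difference turned to -0.016 without control 3 and to -0.011 with array weights. Polr1c and Polr1d encode the AC40 and AC19 pair that polymerases I and III share. Polr1c went from 12.24, 12.25 and 12.34 to 12.38, 12.49 and 12.64, with no overlap and 9 of 9 probe sets higher, and missed the threshold (0.22 ± 0.08, SE, limma adjusted p = 0.104). It passed with a trend and robust prior, array weights, the mean of probe sets and centred probe sets (limma adjusted p = 0.0385, 0.0171, 0.0157 and 0.00942). These were 4 of 18 alternatives, and in the others its limma adjusted p ran up to 0.287. Polr1d differed by -0.0028 ± 0.069 (SE), within the spread of either group, and its sign turned with repeated quantile normalization (0.0046).

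The rule leaves out 3 polymerase I subunits that the array lists under older symbols: Znrd1 (Polr1h), Twistnb (Polr1f) and Cd3eap (Polr1g). They differed by 0.011, 0.049 and 0.18 and none passed (limma adjusted p = 0.941, 0.683 and 0.228).

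In the SL1 complex, Taf1a and Taf1d rose and Taf1b and Taf1c did not pass. Taf1d (TAFI41) had 7.94, 7.71 and 7.60 on controls and 8.57, 8.30 and 8.14 after insulin. It lay nearest to the dim filter of the 42 genes, and a filter at the 50th percentile left it untested. Every insulin array lay above every control, and Taf1d rose by 0.59 ± 0.13 (SE, limma adjusted p = 0.0182). All 23 of its probe sets were higher after insulin, by 0.24 to 1.21, and 6 passed alone. Several of the 23 are numbered far from each other on the array, and it was not checked that each reads the Taf1d transcript. In addition, 4 of the 23 held the same value as each other on every array. None of these 4 passed alone, and they weigh on the gene's median. With identical probe sets counted once, an alternative added after seeing the data, 20 remained and Taf1d read 7.74, 7.97 and 7.88 on controls and 8.48, 8.58 and 8.51 after insulin (0.66, limma adjusted p = 0.0019). The order of the arrays within each group thus moved with this choice and the gap between the groups stayed. No other member held identical probe sets. The call was lost without control 2, insulin 1 or insulin 2 (limma adjusted p = 0.0624, 0.0551 and 0.0574).

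Taf1a (TAFI48) had 9.59, 9.51 and 9.53 on controls and 10.04, 10.16 and 9.83 after insulin. The controls lay within a narrow band and insulin 3 was the lowest of the treated arrays. Taf1a rose 1.38-fold (0.47 ± 0.09, SE, limma adjusted p = 0.0124), with all 3 probe sets higher. Without insulin 1 it missed the threshold (limma adjusted p = 0.051).

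Taf1b (TAFI68) had 10.21, 10.50 and 10.67 on controls and 10.61, 10.70 and 10.69 after insulin. The groups overlapped at control 3 (0.20 ± 0.11, SE, limma adjusted p = 0.276). Taf1c (TAFI95) had 9.06, 8.91 and 8.99 on controls and 8.83, 8.83 and 8.97 after insulin, with overlap and a difference of -0.11 ± 0.07 (SE, limma adjusted p = 0.362). Tbp, which SL1 shares with other complexes and which lies outside the rule, differed by 0.19 ± 0.17 (SE, limma adjusted p = 0.488). Of the genes of the complex Taf1c alone lay on the negative side.

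Rrn3 encodes TIF-IA, the factor through which growth signals are known to switch polymerase I on and off. Its values were 11.72, 11.45 and 11.59 on controls and 11.58, 11.44 and 11.47 after insulin. The groups overlapped, 10 of its 18 probe sets were higher, and the 95% interval of the difference ran from -0.28 to 0.11 (limma adjusted p = 0.536). Ubtf had 11.01, 10.94 and 10.74 on controls and 10.90, 11.03 and 11.01 after insulin, again with overlap (0.083 ± 0.086, SE, limma adjusted p = 0.576). The result for Ubtf depended on how its 23 probe sets were joined, as 20 of them were higher after insulin with a median difference of 0.29. It passed with the mean of probe sets (0.25, limma adjusted p = 0.022), with the brightest (0.28, 0.0485) and with centred probe sets (0.27, 0.0166). These were 3 of 18 alternatives, and in the others its limma adjusted p ran up to 0.979.

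**Figure D2:**
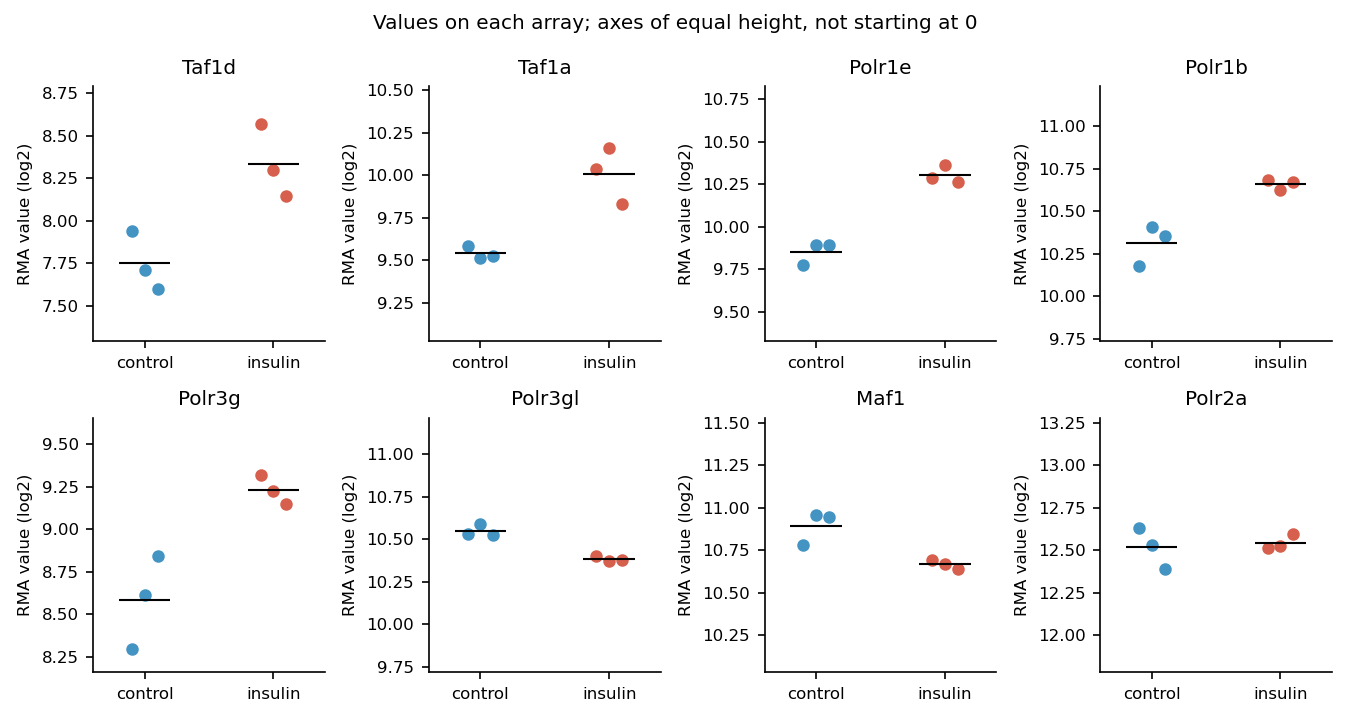
Log2 RMA value on each of the 3 control (blue) and 3 insulin (red) arrays for 8 genes, with lines at the group means; every vertical axis spans the same height and none starts at 0. Taf1d, Taf1a, Polr1e, Polr1b and Polr3g lie higher on all insulin arrays, Polr3gl and Maf1 lie lower on all of them without passing the test, and Polr2a overlaps.

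The polymerase II set held 12 genes and limma called none in either direction. Without adjustment none reached a p of 0.05 either, whereas 29.9% of all tested genes did. With array quality weights Polr2h passed (0.17, limma adjusted p = 0.0277). Differences ran from -0.083 for Polr2k to 0.18 for Polr2d, and the 95% intervals of the 12 genes all lay between -0.32 and 0.37.

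Polr2a encodes RPB1, the catalytic subunit whose C-terminal repeat is phosphorylated during transcription. It had 12.63, 12.53 and 12.39 on controls and 12.51, 12.52 and 12.60 after insulin. The difference was 0.026 with an interval of -0.15 to 0.21, and the controls spread more widely than the insulin arrays. Polr2b (RPB2, the second catalytic subunit) had 11.54, 11.67 and 11.73 on controls and 11.74, 11.76 and 11.45 after insulin. Insulin 3 was below all controls and the other two insulin arrays above them (0.0067 ± 0.099, SE, and -0.014 with arrays centred on their medians).

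Among the smaller polymerase II subunits, Polr2d, Polr2i, Polr2c and Polr2j had insulin arrays wholly above the controls, by 0.18, 0.12, 0.11 and 0.081, without passing. So did Polr2h, which all 3 polymerases share (0.13, limma adjusted p = 0.242). Among all tested genes 20.0% had insulin arrays wholly above and 15.7% wholly below the controls. For the members these counts were 16 and 2 of 42, with 5 of 11 above in the polymerase I set, 5 of 12 in polymerase II and 6 of 19 in polymerase III. The 5 subunits common to all 3 enzymes (Polr2e, Polr2f, Polr2h, Polr2k and Polr2l) had a median difference of 0.0044, that of Polr2e, which was -0.016 with arrays centred on their medians. Polr2g (0.038) and the shared Polr2f (0.023) overlapped between the groups. Polr2l and Polr2k were lower on every probe set (3 of 3 and 2 of 2), by 0.030 and 0.083 at the level of the gene, within the spread of the arrays. Polr2m is listed on the array under its older symbol Grinl1a, outside the rule, and differed by 0.065 ± 0.060 (SE, limma adjusted p = 0.519).

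In the polymerase III set Polr3g rose, with the largest difference of the 42 genes. Its values were 8.29, 8.61 and 8.84 on controls and 9.32, 9.22 and 9.15 after insulin. The controls spread over a wide range with control 1 lowest, and every insulin array lay above them. Polr3g rose 1.56-fold (0.65 ± 0.13, SE, limma adjusted p = 0.0148), and its 9 probe sets were all higher, by 0.034 to 0.90. It missed the threshold without insulin 1 or insulin 2 (limma adjusted p = 0.0609 and 0.0546) and with the brightest probe set (0.65, 0.0726).

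Its paralog Polr3gl had 10.53, 10.59 and 10.52 on controls and 10.40, 10.37 and 10.38 after insulin. All 3 insulin arrays lay below the controls, and so did all 8 probe sets on average, by 0.041 to 0.39. The gene's difference of -0.16 ± 0.06 (SE) missed the threshold (limma adjusted p = 0.112). Polr3gl passed with the mean of probe sets (-0.17, 0.0351), centred probe sets (-0.18, 0.0252), brighter probe sets (-0.25, 0.0257) and array weights (-0.20, 0.0109). These were 4 of 18 alternatives, and in the others its limma adjusted p ran up to 0.611. Polr3g minus Polr3gl was -2.24, -1.98 and -1.68 on controls and -1.08, -1.15 and -1.23 after insulin. This is a difference between values of unlike probes, so only its shift between the groups can be read, which was 0.81. Every insulin array lay above the controls for Polr3g and below them for Polr3gl, so this difference had to separate the groups. An exact permutation test over the arrays (two-sided) could then give only p = 0.1, its floor for groups of 3 and 3. It adds no support to the values themselves.

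The other core subunits of polymerase III lay mostly on the positive side without passing. Polr3e (RPC5) came nearest, with 8.69, 8.51 and 8.69 on controls and 8.87, 8.98 and 8.81 after insulin. The groups did not overlap, and the difference of 0.26 ± 0.08 (SE) gave a limma adjusted p of 0.062. Polr3e passed with the mean, centred, brighter or brightest probe sets (limma adjusted p from 0.0103 to 0.0435), with array weights (0.00288) and with the 50th percentile filter (0.0386). These were 6 of 18 alternatives, and in the others its limma adjusted p ran up to 0.201. Polr3k, Polr3c and Polr3b, which encode RPC11, RPC62 and the second-largest subunit RPC128, had insulin arrays wholly above the controls too, by 0.22, 0.20 and 0.18 (limma adjusted p = 0.134, 0.121 and 0.144). Polr3c passed with array weights, the mean of probe sets and centred probe sets (limma adjusted p = 0.0138, 0.02 and 0.0128), and Polr3b with array weights (0.0181). Of 18 alternatives these were 3 and 1, and in the others the limma adjusted p ran up to 0.343 and 0.709. Polr3b had 10.31, 10.34 and 10.46 on controls and 10.60, 10.55 and 10.48 after insulin, and 2 of its 28 probe sets were lower after insulin, with a difference of -1.20 at the lowest.

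Polr3a, the largest subunit (RPC155), did not follow. It had 9.98, 9.68 and 9.86 on controls and 9.81, 9.89 and 9.83 after insulin, with overlap and a 95% interval of -0.19 to 0.20. Its difference of 0.0052 turned to -0.022 and -0.015 with repeated quantile normalization and with arrays centred on their medians. Polr3f (0.22) and Polr3d (0.030) overlapped between the groups as well, and Polr3d passed only with its brightest probe set (0.38, limma adjusted p = 0.0124). Over the 9 core genes 8 differences were positive, with a median of 0.20, and 6 had an unadjusted p under 0.05 (5 higher, and Polr3gl lower). Crcp, which encodes the subunit RPC9 and lies outside the rule, rose by 0.32 ± 0.07 (SE, limma adjusted p = 0.0156), from 10.30, 10.34 and 10.41 to 10.71, 10.67 and 10.61.

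The promoter-binding factors of polymerase III did not pass. In TFIIIC, which reads the internal promoter of transfer RNA genes, the 6 Gtf3c genes had differences from -0.086 (Gtf3c1) to 0.13 (Gtf3c2) and none reached an unadjusted p of 0.05. Between them lay Gtf3c6 (0.12, insulin arrays wholly above), Gtf3c3 (0.10), Gtf3c5 (0.024, and -0.0012 with repeated quantile normalization) and Gtf3c4 (-0.050). Gtf3c2 passed with centred probe sets (0.15, limma adjusted p = 0.0429). Brf1, the TFIIIB subunit used at transfer RNA genes, had 9.93, 9.89 and 9.73 on controls and 9.69, 9.82 and 9.88 after insulin, a difference of -0.049 ± 0.082 (SE). Brf2, its counterpart at U6-type promoters, had 9.62, 9.65 and 9.55 against 9.55, 9.57 and 9.70, a difference of 0.00053 whose sign changed with the setting. Bdp1 had 9.63, 9.36 and 9.24 on controls and 9.67, 9.43 and 9.53 after insulin (0.13 ± 0.11, SE), with 28 of 40 probe sets higher. The groups overlapped for all 3 TFIIIB genes, and 5 of the 22 probe sets of Brf1 were higher after insulin.

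Maf1, the repressor of polymerase III, had the most negative difference of the 42 genes. It had 10.78, 10.96 and 10.95 on controls and 10.69, 10.67 and 10.64 after insulin. All 8 of its probe sets were lower after insulin, by 0.18 to 0.50, and the groups did not overlap. The difference of -0.23 ± 0.07 (SE) missed the threshold (limma adjusted p = 0.0708). Maf1 passed with the mean of probe sets (-0.30, 0.00522), centred probe sets (-0.26, 0.00464), array weights (-0.28, 0.00346), the 50th percentile filter (-0.23, 0.0433) and without control 1 (-0.28, 0.0273). These were 5 of 18 alternatives, and in the others its limma adjusted p ran up to 0.207.

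At the level of probe sets, which on this array cover short stretches of sequence, the 42 genes had 593. Of these 425 (71.7%) were higher after insulin, against 48.7% of all 212097 named probe sets. The groups differ in brightness, as 566 of the 593 lay past the dim filter against 148468 of the 212097. Probe sets were placed with a gene by the symbol in the array's annotation. It was not checked that each reads that gene's own transcript, and those of Taf1d, Polr1d and Polr2h, for instance, are not numbered together. Probe sets of a gene read the same 6 samples and are not replicates. The share was 80.0% in polymerase I, 78.5% in polymerase II and 64.6% in polymerase III. Of the members' 566 probe sets past the dim filter 20 (3.53%) passed as higher and 1 as lower, against 3.95% and 1.71% of all tested probe sets. Of the 20 that passed as higher, 15 belonged to polymerase I genes (9.2% of 163 tested) and 5 to polymerase III genes (1.68% of 298). None belonged to polymerase II genes (105 tested), and 6 of the 15 were those of Taf1d. In 12 genes every probe set was higher (for instance Polr1b, Taf1d and Polr3g) and in 4 every probe set was lower (Polr2l, Polr2k, Polr3gl and Maf1).

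**Figure D3:**
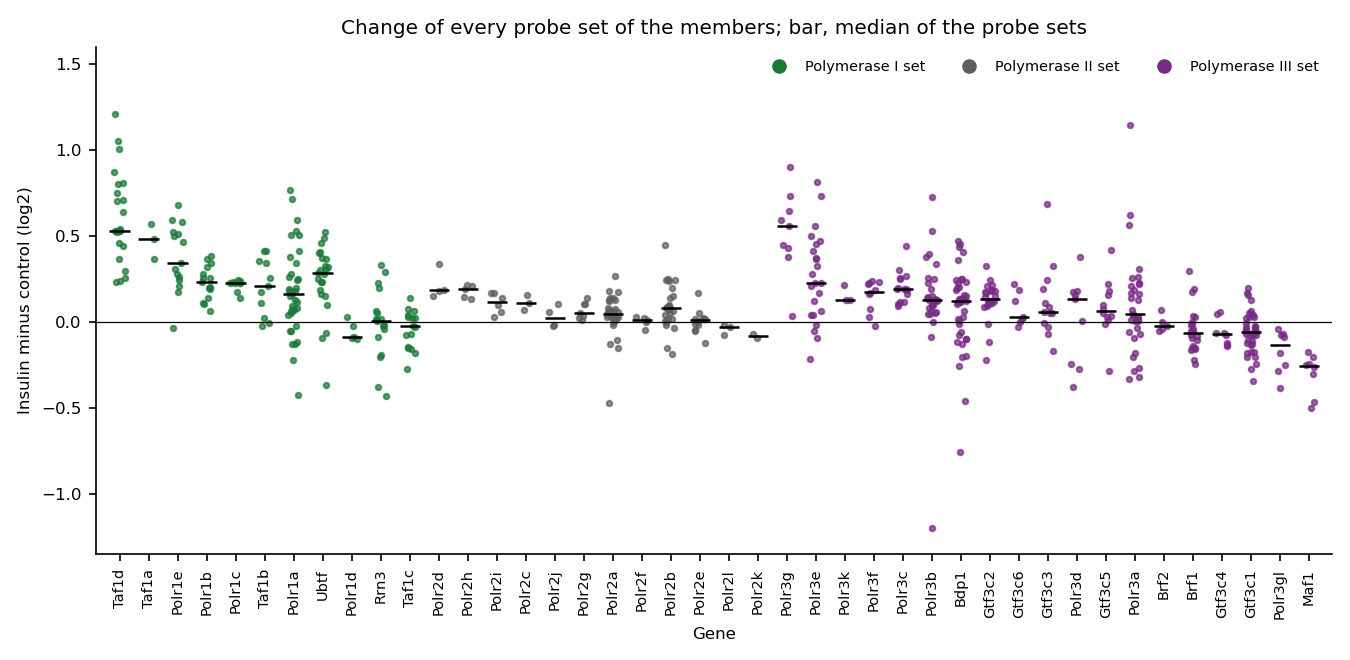
Difference between insulin and control arrays on the log2 scale for each of the 593 probe sets, by gene and coloured by set, with a bar at the median of a gene's probe sets. Taf1d, Polr1b and Polr3g have every point above 0, Polr3gl and Maf1 every point below 0, and Polr1a, Polr3a and Bdp1 spread to both sides.

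The mean over a set's genes, taken as the deviation from each gene's mean over the 6 arrays, showed how even the arrays were. For polymerase I it was -0.096, -0.099 and -0.11 on controls and 0.12, 0.10 and 0.089 after insulin. For polymerase II it was -0.059, 0.0077 and -0.025 against -0.0059, 0.046 and 0.036, and the groups overlapped. For polymerase III it was -0.077, -0.029 and -0.026 against 0.051, 0.045 and 0.036. The shift between groups was 0.20, 0.051 and 0.088 for the 3 sets and 0.019 over all tested genes. Without the subunits common to all 3 enzymes, the mean difference of the polymerase II set was 0.081.

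**Figure D4:**
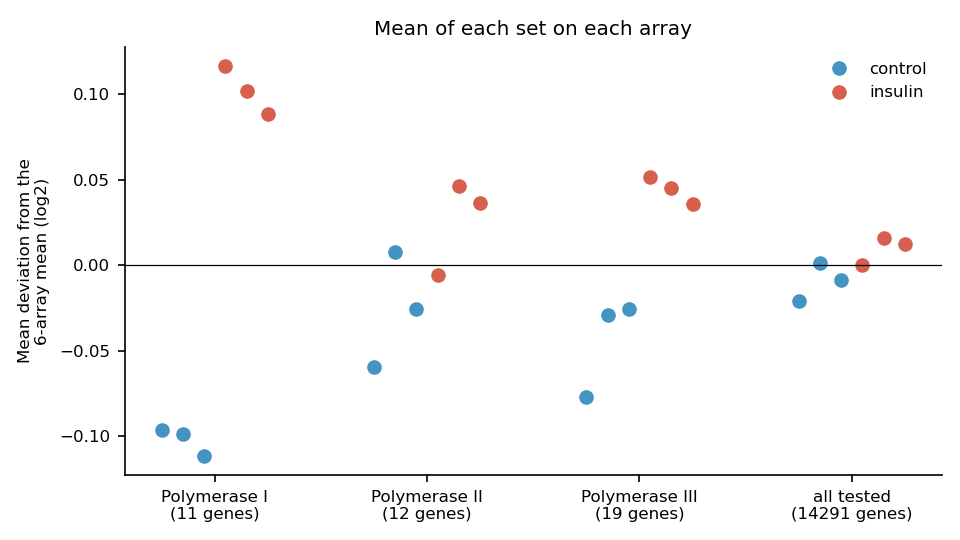
Mean deviation from the 6-array mean on the log2 scale, for the 3 sets and for all tested genes, with a point per array. Control (blue) and insulin (red) arrays lie apart in the polymerase I and III sets and overlap in the polymerase II set.

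Genes that work beside the polymerases were counted in the same fit, in which 9.56% of all tested genes rose and 6.35% fell. The share that rose was 37.5% of the other ribosomal DNA factors, 11.1% of the other polymerase III factors and 8.33% of the assembly genes. For polymerase II it was 3.23% of general factors, 14.3% of elongation genes and 10% of Mediator genes. Among 16 other factors of ribosomal DNA transcription 6 rose and none fell, with a median of 0.27. They included Ruvbl2 (0.49), an ATPase of chromatin and assembly complexes, the nucleolar helicase gene Ddx21 (0.41), Ncl (nucleolin, 0.36) and Pwp1 (0.34). Among 9 other polymerase III factors only Snapc4, a subunit of the complex at U6-type promoters, rose (0.33, limma adjusted p = 0.0388), and Gtf3a, which binds 5S genes, did not pass (0.27, adjusted p = 0.155). Of 12 genes for assembly and import of polymerases Ruvbl2 alone rose, with a median of 0.16. For polymerase II, 1 of 31 general transcription factor genes rose (Taf5, 0.57), 4 of 28 elongation genes (Ctr9 0.42, Supt16h 0.35, Leo1 0.29 and Larp7 0.26) and 3 of 30 Mediator genes (Cdk8 0.44, Med1 0.27 and Med8 0.24), and none fell. None of 8 genes of the mitochondrial polymerase and its factors passed in limma or had an unadjusted p under 0.05, and Polrmt differed by -0.047.

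**Figure D5:**
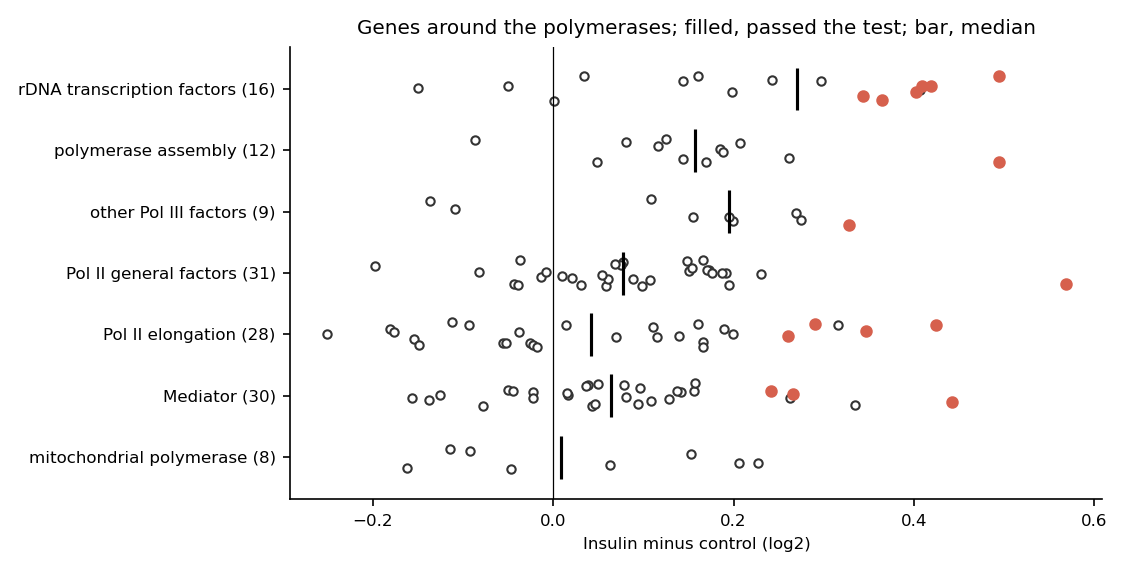
Difference between insulin and control arrays on the log2 scale for genes on 7 lists around the polymerases, with the number of tested genes in brackets; filled points passed the test and bars mark medians. The factors of ribosomal DNA transcription have 6 filled points and a median of 0.27, and the mitochondrial polymerase list has no filled point.

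Regulators known to act on these polymerases in other systems went both ways. Myc rose by 0.67 ± 0.07 (SE, limma adjusted p = 0.00109), while Mtor (-0.33), Rb1 (-0.33), a repressor of polymerases I and III, and Mycl1 (-0.32) fell. Markers of dividing or undifferentiated myoblasts mostly moved with the polymerase genes that rose. Of 10 such markers 8 rose and none fell, against 9.56% and 6.35% of all tested genes. Myf5 rose (0.29), while Pcna (0.15) and Pax7 (-0.032) did not pass (limma adjusted p = 0.135 and 0.915). The summed linear level of the 10 markers ran from 24210 to 25450 on controls and from 33500 to 35400 on insulin arrays. Their part in the results was not tested. In bulk RNA a change in the share of such cells and a change in RNA per cell cannot be told apart. Of 7 adipocyte markers 3 lay under the dim filter (Adipoq, Lep and Fabp4) and limma called none of the other 4, with 1 at an unadjusted p under 0.05 (Retn). Of 7 endothelial or immune markers 5 lay under the filter and neither of the others reached an unadjusted p of 0.05. Of 7 fibroblast markers Lum lay under the filter and the 6 tested split into 3 positive and 3 negative. Dcn fell (-0.57), and Pdgfra (-0.25), Thy1 (0.27) and Dpt (0.20) had an unadjusted p under 0.05 without passing.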

How the data were processed

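RNA was measured on 6 arrays, 3 of insulin-treated and 3 of untreated C2C12 myotubes; 25 ng of total RNA per array was amplified. The authors deposited log2 values per probe set made with RMA, per the submitters' processing notes, with no version. Their range of 3.15 to 14.6 is the basis for taking the log base as 2. Gene symbols are those of GEO's platform annotation, which can be old: 212097 had 1 symbol, 4475 several and 25004 none. A gene's value was the median of its probe sets with 1 symbol. Genes under the 30th percentile of the mean (7.05) were left out, and 14291 were fitted with limma 3.58.1 (lmFit, eBayes, R 4.3.3, two-sided, no covariates), adjusted by Benjamini-Hochberg over all tested genes. SE is that of the fit. The code was tested on simulated data. RMA equalizes arrays, so changes are relative to other transcripts. No detection calls were used, and the number of arrays limits precision. Array medians lay between 8.79 and 8.82, and no 2 arrays were identical.

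The members and lists were chosen with earlier results of these data known. All members are accounted for; values on every array are given for those that passed and for key subunits and factors, Polr3c and others by difference. From each related list up to 4 genes that passed, by smallest p, are named, plus Gtf3a, Tbp and Polrmt; these, the markers named and the array values of Polr1c, Polr3e and Crcp were picked after their values were seen. Alternatives were a replicate block, repeated quantile normalization, median centring, other filters, a trend with robust prior, array weights, other probe set summaries and leaving out each array. Promoters came from RefSeq (GRCm38.p6); the array names no build.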

Additional observations from a re-analysis of the deposited data

How the results depend on the processing

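Over all genes the count that passed was 5007 with array quality weights, 3436 with the mean of probe sets, 3820 with centred probe sets and 1046 to 2446 with an array left out, against 2274. Members that rose numbered 10 under each of the first 3 of these and 1 to 5 with an array left out, against 5. Of all tested genes 18.2%, 13.7% and 15.4% rose in those 3 runs, against 9.56%. With an array left out it was 4.64% to 10.4%. Members that fell numbered 2 under each of the 3, 1 with the 50th percentile filter or brighter probe sets and 0 to 1 with an array left out, against 0. In the polymerase I set 7 rose with the mean of probe sets and 1 to 4 with an array left out, against 4. In the polymerase II set 1 rose with array weights. In the polymerase III set, where 1 rose, the count was 4 with array weights or centred probe sets, 3 with the mean, 2 with the brightest or brighter probe sets, the 50th percentile filter or with Crcp added, and 0 to 1 with an array left out. Repeated quantile normalization, median centring, no filter and the trend with robust prior left these counts within 1.5 times. No gene that passed in either setting changed sign, and in 49 cases a gene that passed in neither did. The causes were not tested. Centred probe sets, older symbols and identical probe sets counted once were added after seeing the data; the last gave 2273 genes and the same 5 members. The replicate block gave 1970 genes and the same 5 members. Deviations of same-numbered arrays correlated at 0.025, 0.19 and -0.00036, and those of differently numbered control and insulin arrays at -0.10 to 0.069. The labels do not say whether the numbers pair the arrays, and so few arrays cannot settle it. Background was not measured, so dim genes such as Taf1d carry more doubt.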
